A study of Homo sapiens with 2 samples.

Results

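The genes of nonsense-mediated decay described here are UPF1, UPF2, UPF3A, UPF3B, SMG1, SMG5, SMG6, SMG8 and SMG9, taken by gene name from a fixed list of decay factors. They are 9 of the 10145 genes with a row in at least 1 of 2 gene tables. All 9 had a row in the ZC3H7B table and 7 had one in the ZC3H7A table. The tables come from PAR-CLIP, crosslinking and immunoprecipitation with a photoactivatable ribonucleoside, of Flag/HA-tagged ZC3H7B and Flag/HA-tagged ZC3H7A, a pair of CCCH zinc finger proteins, in HEK293 cells, a human embryonic kidney line. Both groups were labelled as Flag/HA overexpression. Their cells received 1 µg/mL doxycycline for 24 h to induce the tagged protein, and 100 µM 4-thiouridine for 16 h before irradiation at 365 nm. Each protein had 1 library, and a control library is not analysed here. No difference between the proteins was therefore tested, and every ratio compares 2 libraries.

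Nonsense-mediated decay removes messenger RNAs on which the ribosome stops too early, and it also lowers the level of many normal transcripts. UPF1, an RNA helicase, is brought to a terminating ribosome together with UPF2 and UPF3B, which link it to exon junction complexes left behind by splicing. The kinase SMG1, held in a complex with SMG8 and SMG9, phosphorylates UPF1, and SMG5 and SMG6 then bind phosphorylated UPF1 and start the breakdown of the RNA. Messenger RNAs of several of these factors are themselves known targets of the pathway in human cells. The series title names regulation of translation and mRNA stability. The question here is which decay factor transcripts each tagged protein was recovered on, and in which part of the transcript.

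In PAR-CLIP, reads with T-to-C conversions at crosslinked 4-thiouridine are grouped into clusters, and the tables give for each gene its clusters, its reads and its distinct reads. The ZC3H7B library held 2409465 reads, 1212989 distinct reads and 99805 clusters on genes, and the ZC3H7A library held 3779662 reads, 300342 distinct reads and 51808 clusters. That is 1.99 reads per distinct read in the ZC3H7B library and 12.6 in the ZC3H7A library. Each tagged gene had more reads in its own library. ZC3H7B had 3768 reads in its own library and 1362 in the ZC3H7A library, and ZC3H7A had 158 reads in the ZC3H7B library and 82704 in its own. Of 7 markers of HEK293 cells, NEFL, VIM and LIN28B had clusters in both libraries and KRT18 in the ZC3H7A library, and NEFM, KRT8 and PAX2 had no value here. None of the blood and liver markers PTPRC, CD3E, ALB and HBB had one. These are tables of bound RNA, so they do not show how strongly a gene was expressed, and more binding per transcript cannot be told apart from more transcript. Reads are not adjusted for transcript length, so the genes are compared between libraries and not with each other.

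Together the decay genes held 2071 reads in 136 clusters in the ZC3H7B library, or 860 RPM, reads per 1000000 cluster reads on genes (95% exact interval 823 to 897). In the ZC3H7A library they held 2602 reads in 47 clusters, or 688 RPM (662 to 715). Intervals here and below cover counting error only. Reads can be PCR copies of 1 molecule, so the intervals of reads are narrower than independent molecules would give. In distinct reads the genes had 1183 in the ZC3H7B library and 222 in the ZC3H7A library (975 and 739 distinct reads per 1000000). The genes did not lean one way. By reads, UPF1, UPF2, SMG1 and SMG5 had larger shares of the ZC3H7B library, though the intervals of UPF1 overlap. UPF3B, SMG8 and SMG9 had larger shares of the ZC3H7A library, and UPF3A and SMG6 had rows in the ZC3H7B table alone.

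**Figure D1:**
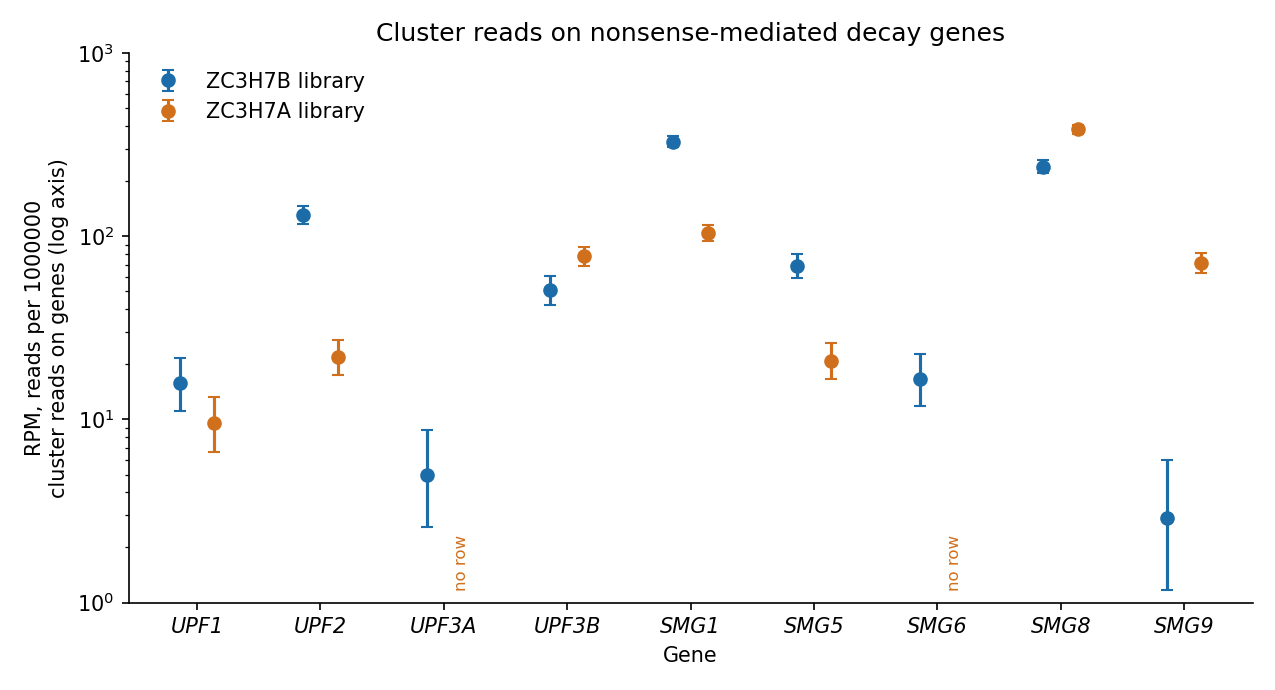
RPM, reads per 1000000 of the cluster reads on genes (log axis) for each decay gene in the ZC3H7B library (left of each pair) and the ZC3H7A library, with exact 95% intervals for counting error. SMG1 stood at 329 and 105 RPM, SMG9 at 2.91 and 71.4, and UPF3A and SMG6 have no point for the ZC3H7A library because they had no row there.

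UPF1, the helicase at the centre of the pathway, had few reads in either library. It had 38 reads made of 26 distinct reads in 6 clusters in the ZC3H7B library, and 36 reads made of 5 distinct reads in 2 clusters in the ZC3H7A library. This was 15.8 RPM (11.2 to 21.6) in the ZC3H7B library and 9.52 (6.67 to 13.2) in the ZC3H7A library. Its log2 ratio, ZC3H7B over ZC3H7A with the median gene at 0, was 0.57 (-0.13 to 1.27), an interval that holds 0. Scaled to total reads it was 0.73 (0.03 to 1.43), an interval just above 0, but the median gene then stood at 0.16. With distinct reads it was 0.32 (-1.08 to 2.06) and with clusters 0.66 (-1.82 to 4.00), intervals that hold 0. Coding sequence and the 3' UTR each held 3 of its clusters in the ZC3H7B library. In the ZC3H7A library 1 lay in the 5' UTR and 1 in the 3' UTR.

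UPF2, the adaptor between UPF1 and UPF3B, had 316 reads made of 187 distinct reads in 19 clusters in the ZC3H7B library, against 83 reads made of 11 distinct reads in 3 clusters in the ZC3H7A library. This was 131 RPM (117 to 146) in the ZC3H7B library and 22.0 (17.5 to 27.2) in the ZC3H7A library. Of the 7 decay genes with a row in both tables, UPF2 had the highest log2 ratio, 2.42 (2.07 to 2.79), or 5.36-fold higher in the ZC3H7B library. Of its clusters in the ZC3H7B library, 9 lay in coding sequence, 5 in the 3' UTR, 3 in introns, 1 at the start codon and 1 in no named region. All 3 clusters of the ZC3H7A library lay in coding sequence.

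UPF3A and UPF3B are paralogs that bind UPF2 and the exon junction complex, and UPF3B is the more active of them in decay. UPF3A had 1 cluster in the ZC3H7B library, in the 3' UTR, with 12 reads made of 11 distinct reads, and no row in the ZC3H7A table. A gene without a row has no value here, since reads outside called clusters are not in the tables. UPF3B had 122 reads made of 48 distinct reads in 6 clusters in the ZC3H7B library, against 294 reads made of 11 distinct reads in 2 clusters in the ZC3H7A library. By reads its log2 ratio was -0.78 (-1.09 to -0.47), lower in the ZC3H7B library. Each distinct UPF3B read was counted 2.54 times in the ZC3H7B library and 26.7 times in the ZC3H7A library, more than the average of either library. With distinct reads the log2 ratio of UPF3B was 0.07 (-0.90 to 1.16), and with clusters 0.66 (-1.82 to 4.00), so its direction depends on the measure. Its clusters lay mostly in coding sequence, 4 of 6 in the ZC3H7B library and both clusters of the ZC3H7A library.

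SMG1, the kinase that phosphorylates UPF1, had 792 reads made of 446 distinct reads in 56 clusters in the ZC3H7B library. In the ZC3H7A library it had 395 reads made of 43 distinct reads in 12 clusters. This was 329 RPM (306 to 352) in the ZC3H7B library and 105 (94.5 to 115) in the ZC3H7A library. The log2 ratio was 1.50 (1.32 to 1.67), or 2.82-fold higher in the ZC3H7B library. RefSeq names 7 SMG1 pseudogenes, partial copies of the gene, and none of these names was among the rows used here. A copy listed under another name would be missed. Reads from such copies cannot be told apart from SMG1 reads where the sequence is shared.

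SMG8 and SMG9 encode the partners that regulate SMG1. SMG8 had 578 reads made of 331 distinct reads in 28 clusters in the ZC3H7B library, against 1445 reads made of 116 distinct reads in 17 clusters in the ZC3H7A library. Its log2 ratio was -0.83 (-0.97 to -0.69), lower in the ZC3H7B library, and -0.54 (-0.85 to -0.23) with distinct reads. With clusters it was -0.21 (-1.13 to 0.76), an interval that holds 0. SMG9 had 7 reads made of 4 distinct reads in 1 cluster in the ZC3H7B library, against 270 reads made of 25 distinct reads in 7 clusters in the ZC3H7A library. This was the lowest log2 ratio of the 7 decay genes in both tables, -4.78 (-6.10 to -3.71), and it was -4.70 (-6.68 to -3.17) with distinct reads. The 7 reads lie near 4, the lowest read sum of any gene in the ZC3H7B table.

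SMG5 and SMG6 act after UPF1 is phosphorylated. SMG5 helps to bring in deadenylation and decapping, and SMG6 is an endonuclease that cuts the RNA near the stop codon. SMG5 had 166 reads made of 106 distinct reads in 13 clusters in the ZC3H7B library, against 79 reads made of 11 distinct reads in 4 clusters in the ZC3H7A library. Its log2 ratio was 1.56 (1.17 to 1.97), or 2.96-fold higher in the ZC3H7B library. SMG6 had 40 reads made of 24 distinct reads in 6 clusters in the ZC3H7B library, 4 of them in coding sequence, 1 at the start codon and 1 in the 3' UTR, and no row in the ZC3H7A table.

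Of the 9 genes, 7 had a row in both tables and at least 20 reads summed over the libraries, and these 7 could be compared. The call was that a gene is higher in a library if its exact interval lies wholly beyond 2-fold. UPF2, SMG1 and SMG5 were higher in the ZC3H7B library, 3 of 7, where 18.2% of the 7168 genes compared were called in that direction. SMG9 was higher in the ZC3H7A library, 1 of 7, where 18.0% of genes were called. The median log2 ratio of the 7 genes was 0.57, beside 0 for all genes compared, and it ranged from -4.78 to 2.42. All 7 decay genes of the ZC3H7A table also had a row in the ZC3H7B table, as did 88.0% of all its genes, and 7 of the 9 of the ZC3H7B table had one in the ZC3H7A table, as did 78.8% of all its genes.

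The calls depended on the measure. With distinct reads, which are less open to PCR copies, UPF2 alone was higher in the ZC3H7B library, at a log2 ratio of 2.03 (1.16 to 3.06), where 7.28% of genes were called, and SMG9 alone in the ZC3H7A library, where 10.1% were. SMG1 then stood at 1.32 (0.87 to 1.81) and SMG5 at 1.21 (0.32 to 2.26), intervals above 0 that reach below 2-fold. With clusters none of the 7 was called, and 0.321% of genes were called towards ZC3H7B and 0.223% towards ZC3H7A. SMG1 stood at 1.30 (0.38 to 2.33) and UPF2 at 1.74 (-0.03 to 4.14) by clusters. With mean reads per cluster no gene of the group was called towards ZC3H7B, with 6.18% of genes called. UPF3B alone was called towards ZC3H7A, at -1.39 (-1.70 to -1.08), with 4.65% of genes called. It had 6 clusters in the ZC3H7B library and 2 in the ZC3H7A library. Intervals of mean reads per cluster take the numbers of clusters as fixed, so they are too narrow where clusters are few. UPF2 was at 0.73, SMG1 at 0.25 and SMG9 at -0.99 by that measure. In point values most of their difference in reads therefore lay in the number of clusters. SMG5 was at 0.84 by that measure and at 0.77 by clusters, so its difference was split between them. UPF2 and SMG5 had 3 and 4 clusters in the ZC3H7A library and SMG9 had 1 in the ZC3H7B library, so these splits are rough. With genes missing from 1 table kept at 0 there, 8 decay genes entered. SMG6 was then also called towards ZC3H7B, where 24.1% of genes were called. SMG9 alone was called towards ZC3H7A, where 23.4% of genes were. SMG6 passed the minimum of reads through the ZC3H7B library alone. Its 0 in the ZC3H7A library is a setting and not a measured value, so its call is no evidence of a difference.

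**Figure D2:**
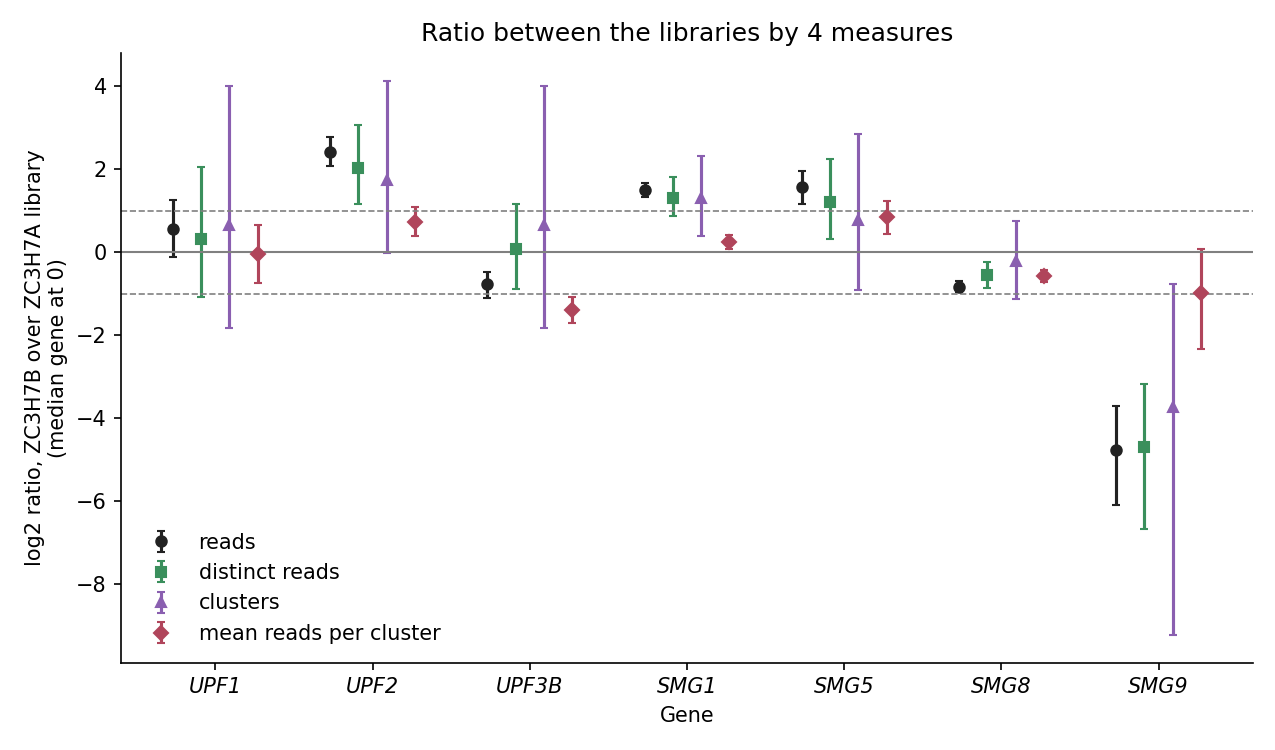
Log2 ratios, ZC3H7B over ZC3H7A library, of the 7 decay genes with rows in both tables, by reads, distinct reads, clusters and mean reads per cluster, each scaled so that the median gene stands at 0. Bars are exact 95% intervals for counting error and the dashed lines mark 2-fold. Bars of mean reads per cluster take the numbers of clusters as fixed and leave out their counting error. UPF2, SMG1 and SMG5 lie above 0 and SMG8 and SMG9 below 0 by all 4 measures, and UPF1 and UPF3B change side. The intervals of UPF2, SMG5 and SMG8 by clusters and of SMG9 by mean reads per cluster hold 0.

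The clusters of the decay genes lay mainly in coding sequence in both libraries. Coding sequence held 83 of 136 clusters, or 61.0% (52.3 to 69.3%), in the ZC3H7B library, and 37 of 47, or 78.7% (64.3 to 89.3%), in the ZC3H7A library. Over all genes these shares were 29.6% and 42.7%. The 3' UTR held 38 of 136 clusters of the decay genes, or 27.9% (20.6 to 36.3%), in the ZC3H7B library and 4 of 47, or 8.51% (2.37 to 20.4%), in the ZC3H7A library, where all genes had 55.8% and 39.8%. Start codons held 3 and 1 clusters and stop codons 2 and 0. The 5' UTR held 0 of 136 clusters in the ZC3H7B library (exact interval 0 to 2.68%) and 2 of 47 in the ZC3H7A library. Over all genes the 5' UTR held 0.772% of clusters in the ZC3H7B library and 3.61% in the ZC3H7A library. Start codons held 0.645% and 1.43% there, and stop codons 1.85% and 1.46%. Clusters on 1 gene share a transcript, so these intervals treat as separate what is not fully independent. SMG1 alone gave 22 of the 38 clusters in 3' UTRs of the ZC3H7B library, and without it the 3' UTR share there was 20%. Without SMG1 and SMG8, coding sequence held 30 of 52 clusters, or 57.7%, in the ZC3H7B library and 11 of 18, or 61.1%, in the ZC3H7A library.

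**Figure D3:**
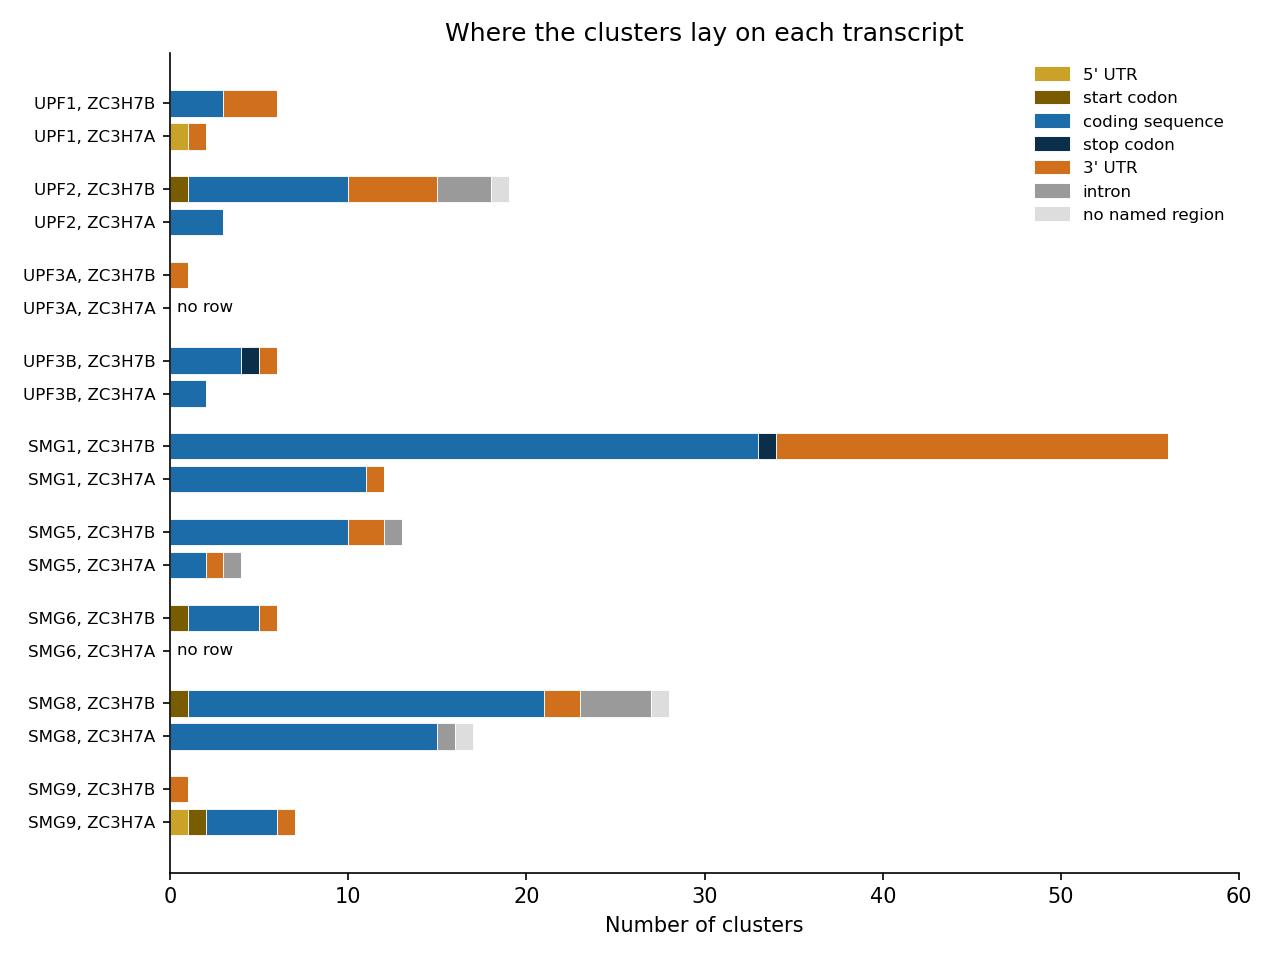
Number of clusters by transcript region for each decay gene, with the ZC3H7B library above the ZC3H7A library. Coding sequence is the longest block for SMG1 and SMG8 in both libraries, and the 3' UTR block of SMG1 holds 22 clusters in the ZC3H7B library and 1 in the ZC3H7A library.

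Where a decay gene had at least 3 clusters, its coding share stood above that of the median gene. Among all genes with that many, the median coding share was 25% in the ZC3H7B library and 42.9% in the ZC3H7A library. The 7 such decay genes in the ZC3H7B library were all above its median, from 47.4% for UPF2 to 76.9% for SMG5. All 5 in the ZC3H7A library were above its median, from 50.0% for SMG5 to 100% for UPF2. UPF3A, with 1 cluster in the ZC3H7B library, and UPF1 and UPF3B, with 2 in the ZC3H7A library, were among those with too few. The 1 SMG9 cluster of the ZC3H7B library lay in the 3' UTR, and 4 of its 7 clusters in the ZC3H7A library were coding. The lengths of coding sequence and 3' UTR were not used, and a longer coding sequence offers more places for a cluster.

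SMG1 and SMG8 had at least 10 clusters in each library, as had 1529 genes in all. Of the SMG1 clusters 33 of 56 were coding in the ZC3H7B library, or 58.9% (45.0 to 71.9%), against 11 of 12, or 91.7% (61.5 to 99.8%), in the ZC3H7A library. SMG8 had 20 of 28, or 71.4% (51.3 to 86.8%), in the ZC3H7B library and 15 of 17, or 88.2% (63.6 to 98.5%), in the ZC3H7A library. In each gene the intervals of the libraries overlap. The coding share, ZC3H7B minus ZC3H7A, differed by -32.7 percentage points for SMG1 and -16.8 points for SMG8. The median over the 1529 genes was -9.65 points, and 1189 of them were lower in the ZC3H7B library. Coding shares at least as high as that of SMG1 were found in 15.4% of these genes in the ZC3H7B library and in 3.60% in the ZC3H7A library. For SMG8 these were 8.18% and 5.30%. Genes as high as SMG1 in both libraries at once were 3.20%, and as high as SMG8 3.79%.

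**Figure D4:**
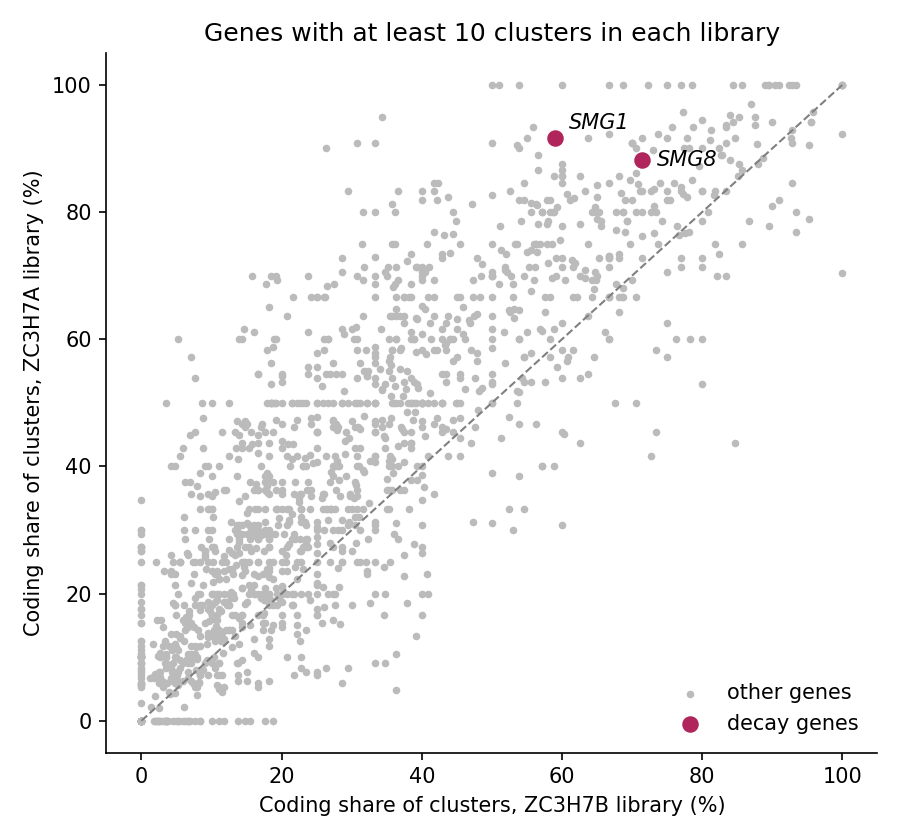
Share of a gene's clusters in coding sequence in the ZC3H7B library (x axis, percent) and the ZC3H7A library (y axis, percent), for 1529 genes with at least 10 clusters in each. SMG1 (58.9% and 91.7%) and SMG8 (71.4% and 88.2%) lie above the dashed line of equal shares, as 1189 of the genes do.

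Over the 7 genes in both tables, the coding share was lower in the ZC3H7B library for 5 (UPF2, UPF3B, SMG1, SMG8 and SMG9) and higher for 2 (UPF1 and SMG5). Among all 7218 genes in both tables it was lower for 55.4%, higher for 22.9% and equal for the rest. For the 3' UTR the share was higher with ZC3H7B for 5 of the 7, equal for UPF1 and lower for SMG5. It was higher for 57.6% of all genes. Few clusters limit these directions. In the ZC3H7A library UPF2 had 3 clusters and UPF3B 2, all coding, so their coding shares could not be higher in the ZC3H7B library. UPF1 had 2 clusters there and none was coding, so its share could not be lower. SMG9 had 1 cluster in the ZC3H7B library. The 3' UTR shares of UPF2, UPF3B and SMG8 were 0 in the ZC3H7A library and could not be lower in the other.

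SMG1 and SMG8 were set against the 1527 other genes with at least 10 clusters in each library, by the summed difference of 12 shares, 6 regions in 2 libraries. The nearest to SMG1 were RPA1, a subunit of replication protein A (7.86 points summed), ADNP2 (15.5 points) and COIL, the coilin of Cajal bodies (21.7 points), where the median gene was 171 points away. Coding clusters of RPA1 were 11 of 20 in the ZC3H7B library and 11 of 12 in the ZC3H7A library. The nearest to SMG8 were SCAF8, a factor that binds the tail of RNA polymerase (17.7 points), SPEN, a transcriptional corepressor (27.8 points), and FAM208B (30.0 points). Coding clusters of SCAF8 were 28 of 38 in the ZC3H7B library and 24 of 26 in the ZC3H7A library.

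Conversion was high in the clusters of all 9 decay genes, and any threshold of the cluster caller on conversion would raise it. The share of T-to-C converted reads, averaged over the clusters of a gene, ran from 90.1% (UPF2) to 100% (UPF3A and SMG9) in the ZC3H7B library. In the ZC3H7A library it ran from 93.4% (SMG9) to 100% (UPF1, UPF2 and SMG5). The middle 50% of all genes spanned 88.0 to 95.1% in the ZC3H7B library and 91.8 to 100% in the ZC3H7A library. Conversion was thus also high over all genes. The median gene stood at 91.1% in the ZC3H7B library and 97.4% in the ZC3H7A library, beside medians of 94.0% and 95.7% for the decay genes. The genes at 100% had 11 distinct reads or fewer in that library.

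The other genes of the pathway did not share 1 direction. Of 21 such genes, 16 had a row in the ZC3H7B table, 16 in the ZC3H7A table, and 15 could be compared, with a median log2 ratio of -0.64. CASC3 and DCP1A were higher in the ZC3H7B library, 2 of 15, and EIF4A3, RNPS1, GSPT1, RUVBL1 and XRN1 in the ZC3H7A library, 5 of 15, beside the same 18.2% and 18.0% of all genes. Scaled to total reads, where the median gene stood at 0.16, NCBP2 was also called towards ZC3H7B and RNPS1 was not called. With distinct reads CASC3 and DCP1A, and EIF4A3 and RUVBL1, kept their calls, and RNPS1, GSPT1 and XRN1 did not. By that measure 7.28% of all genes were called towards ZC3H7B and 10.1% towards ZC3H7A. With clusters none of the 15 was called, beside 0.321% and 0.223% of all genes. With mean reads per cluster MAGOH and DCP1A were higher in the ZC3H7B library and RUVBL1 in the ZC3H7A library, beside 6.18% and 4.65%. MAGOH had 60 reads in 1 cluster in the ZC3H7B library and 62 reads in 3 clusters in the ZC3H7A library. By reads its log2 ratio was 0.45 (-0.09 to 0.98), so its call rests on the cluster numbers.

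Among exon junction complex genes, EIF4A3, the RNA-clamping helicase of the complex, had 304 reads in the ZC3H7B library and 1257 in the ZC3H7A library, a log2 ratio of -1.56 (-1.74 to -1.37). RNPS1, a peripheral splicing factor of the complex, had 376 reads with ZC3H7B and 1237 with ZC3H7A, at -1.23 (-1.40 to -1.06). Among termination genes GSPT1, which encodes release factor eRF3a, had 1284 reads in the ZC3H7B library and 5239 in the ZC3H7A library, at -1.54 (-1.63 to -1.45). GSPT2, a closely related gene, had no row in either table, and how reads shared by both genes were assigned is not given in the sources used here. NCBP2, a subunit of the nuclear cap-binding complex, had 909 reads in the ZC3H7B library and 624 in the ZC3H7A library, at 1.04 (0.89 to 1.18).

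RUVBL1, an ATPase that associates with SMG1, had 71 reads in the ZC3H7B library and 1000 in the ZC3H7A library, at -3.32 (-3.69 to -2.98). DHX34, a helicase that promotes decay, had 26 reads with ZC3H7B and 95 with ZC3H7A, at -1.38 (-2.06 to -0.74). Clusters on the decapping genes DCP2 and DCP1A lay mostly in 3' UTRs. DCP2, the decapping enzyme, had 1504 reads and 54 of 61 clusters in the 3' UTR in the ZC3H7B library, and 3303 reads and 43 of 49 clusters there in the ZC3H7A library, at a log2 ratio of -0.64 (-0.73 to -0.55). DCP1A, its cofactor, had 877 reads and 33 of 36 clusters in the 3' UTR in the ZC3H7B library, and 289 reads and 11 of 11 clusters there in the ZC3H7A library, at 2.09 (1.90 to 2.29).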

How the data were processed

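PAR-CLIP libraries of Flag/HA-tagged ZC3H7B and ZC3H7A were used, 1 each, grouped by sample title. The submitters' processing notes name build hg19 and the tools STAR 2.5.2a, Bowtie and cutadapt. How clusters were called is not given in the sources used here. Per the file headers, the deposited counts are of clusters, reads and distinct reads per gene, with clusters also by region. The deposited fraction is the share of T-to-C converted reads. Its sum over clusters was divided by the number of clusters. Reads outside clusters are not counted. The exon column was read as coding sequence.

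Rows of repeat, tRNA and other RNA classes were left out, 407 of 9566 for ZC3H7B and 282 of 8486 for ZC3H7A. Ratios of genes in both tables with at least 20 reads summed were scaled to a median of 0, with exact Clopper-Pearson 95% intervals. Distinct reads, clusters, mean reads per cluster, TMM (edgeR 4.0.16), total scaling, other minimums and missing genes at 0 were alternatives. The ratio step was tested on simulated independent reads without PCR copies, which cannot show that the intervals hold where reads are copies. Genes named are the 9 decay genes, the 2 with the most reads of each group of other pathway genes, those called, the markers and tagged genes, and the 3 nearest in region shares. GSPT2, MAGOH, GADD45A, SRSF2, SRSF3 and SRSF7 are named beyond that rule, after their values were seen. Another pathway gene of the planned lists is not reported here and is left out of the pathway counts. Genes and lists were chosen with earlier results of these data known. Python 3.11.15, pandas 2.3.3 and scipy 1.17.1 were used. SMG1 pseudogenes were counted in RefSeq's GRCh38.p14 table, used for names only.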

Additional observations from a re-analysis of the deposited data

How the results depend on the processing

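No paired analysis was possible because each protein had 1 library, and for the same reason no replicate could be left out. Of the 7 decay genes compared, 3 were higher in the ZC3H7B library by reads. That count was 1 with distinct reads, 0 with clusters, 0 with mean reads per cluster and 4 with missing genes kept at 0. The last adds SMG6, whose call was fixed by the 0 set for the ZC3H7A library. The count higher in the ZC3H7A library was 1 by reads and 0 with clusters, where few clusters per gene make the intervals wide. The median log2 ratio of 0.57 was 0.32 with distinct reads, 0.66 with clusters, -0.039 with mean reads per cluster, 0.53 with TMM scaling, 0.73 with scaling to total reads, 0.33 with a minimum of 100 reads and 1.03 with missing genes kept at 0. Of 55 alternative values of single-gene ratios, 39 lay within the interval of the value by reads, 16 lay outside it and 0 of the called ratios changed sign. Most of the 55 only rescale or filter the same reads, and those with missing genes kept at 0 repeat the values by reads. The 39 are therefore no measure of stability. Except for SMG8 scaled to total reads, every value outside came from distinct reads, clusters or mean reads per cluster. In the ZC3H7B library the 3' UTR share of 27.9% was 41.3% as a mean of the genes' own shares, in which UPF3A and SMG9 with 1 cluster each weigh as much as SMG1, and 20% without SMG1. The coding share of 61.0% was 48.7% as that mean. In the ZC3H7A library the coding share of 78.7% was 61.1% without SMG1 and SMG8, below its interval of 64.3 to 89.3%. The other alternatives for these shares stayed within the intervals. Depth limits UPF1, UPF2, UPF3B and SMG5 in the ZC3H7A library, with 5 to 11 distinct reads, and UPF3A and SMG9 in the ZC3H7B library, with 11 and 4.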

Other observations

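Textbook targets of nonsense-mediated decay were looked at beside the decay factors. Of 15 such genes, 11 had a row in the ZC3H7B table and 10 in the ZC3H7A table, and the 10 compared had a median log2 ratio, ZC3H7B over ZC3H7A, of -0.32. None was higher in the ZC3H7B library and 2 were higher in the ZC3H7A library, beside 18.2% and 18.0% of all genes. These were ATF4, the transcription factor of the integrated stress response, with 271 reads in the ZC3H7B library and 2122 in the ZC3H7A library (log2 ratio -2.48, -2.66 to -2.29), and DDIT3, its target CHOP, with 15 and 240 reads (-3.51, -4.37 to -2.76). Both were also called with distinct reads, where 10.1% of all genes were called towards ZC3H7A. Neither was called with clusters or with mean reads per cluster. By mean reads per cluster GADD45A and SRSF2 were higher in the ZC3H7B library and SRSF3 in the ZC3H7A library, beside 6.18% and 4.65% of all genes. In the ZC3H7B and ZC3H7A libraries GADD45A had 3 and 7 clusters, SRSF2 20 and 17, and SRSF3 20 and 3. The splicing regulator genes with poison exons, SRSF2, SRSF3, SRSF7 and TRA2B, lay between -0.44 (TRA2B) and 0.39 (SRSF2). HNRNPDL had 1968 and 5577 reads, at -1.01 (-1.08 to -0.94).

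The tables also give each gene row 1 class, and 1 of the classes is named nonsense_mediated_decay, after the transcript biotype. It stood on 64 of 9159 genes in the ZC3H7B table, or 0.699% (0.539 to 0.891%), with 0.425% of reads, and on 40 of 8204 in the ZC3H7A table, or 0.488% (0.349 to 0.663%), with 0.390% of reads. The class was on the same 25 genes in both. It is no measure of decay, and it was on 10 and 11 genes with 1 cluster. For genes with several clusters the class need not be that of most clusters. SMG1 has the class of the 3' UTR in the ZC3H7A table, where 11 of its 12 clusters lay in coding sequence.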
